A study of Mus musculus with 3 samples.

Results

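The genes described here encode the nuclear-encoded subunits of the mitochondrial respiratory chain and of ATP synthase. They were chosen by symbol alone: Nduf genes of the a, b, c, s and v series, Sdha to Sdhd, the Uqcr genes, Cox4 to Cox8 with their isoforms, the Atp5 genes, Ndufab1, Cyc1 and Cycs. The rule found 88 of the 21881 symbols in the files. By their known roles, 83 encode a subunit or cytochrome c, and 5 that share the prefix do not: Cox7a2l, Cox4nb, Atp5s, Atp5sl and Ndufa4l2.

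Total RNA sequencing covered 3 tumours grown from NDL(UCD), a mouse mammary tumour line kept by transplantation, each tumour from a separate mouse. Between 100000 and 2000000 cultured cells were injected on both sides into uncleared fat pads. The hosts were FVB/NJ females, 6 to 8 weeks old, and tumours were snap-frozen at 5 to 10 mm in width. NDL models carry an activated form of Neu, the rat homologue of ErbB2, in mammary epithelium, as background; the labels do not describe the transgene. All 3 tumours form 1 group, with no control or treatment, derive from the same line, and hold whatever host stroma, immune and fat pad cells the dissection took along. The luminal epithelial markers fixed for the check were all above 1 FPKM (fragments per kilobase of transcript per 1000000 fragments), 6 of 6, with Epcam at 205, 202 and 198 FPKM and Erbb2 at 199.9, 195 and 189.7 FPKM in tumours 1, 2 and 3.

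The respiratory chain moves electrons from NADH, through complex I, or from succinate, through complex II, to ubiquinone, then through complex III, cytochrome c and complex IV to oxygen. Complexes I, III and IV pump protons across the inner mitochondrial membrane, and ATP synthase, complex V, uses the returning protons to make ATP. Mitochondrial DNA encodes a small number of the subunits; all others, and every subunit of complex II, come from nuclear genes. Several subunits of complex IV have tissue-restricted isoforms, known from heart and skeletal muscle, testis or lung, beside a general one.

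Nearly all subunit transcripts were abundant. Of the 88 genes, 81 were above 1 FPKM, 6 were below it and Cox7b2 was listed at 0 in every tumour (limma, Benjamini-Hochberg adjusted p under 0.05 over all genes, n = 3). Over all 18028 genes tested, 54.2% were called above and 32.5% below. With the 7 restricted isoforms of complex IV set apart, all 75 subunits of the 5 complexes were above 1 FPKM. Of these, 68 lay in the top 10% of the 18028 genes tested by mean FPKM, the median percentile was 97.0 and the lowest was 69.2, for Ndufa11. Per tumour, subunit transcripts took 2.40%, 2.79% and 3.20% of the FPKM summed over loci of at least 300 bp. The order of the genes by level was nearly the same in every tumour, with Spearman coefficients of 0.974, 0.963 and 0.985 across the 81 genes for tumours 1 and 2, 1 and 3, and 2 and 3; genes of 1 library share its depth and scaling, and no test is attached. A lower level in a whole tumour can come from fewer cells of a type or from less RNA per cell, and these cannot be told apart in such samples. It also depends on how a library is scaled, as given below.

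**Figure D1:**
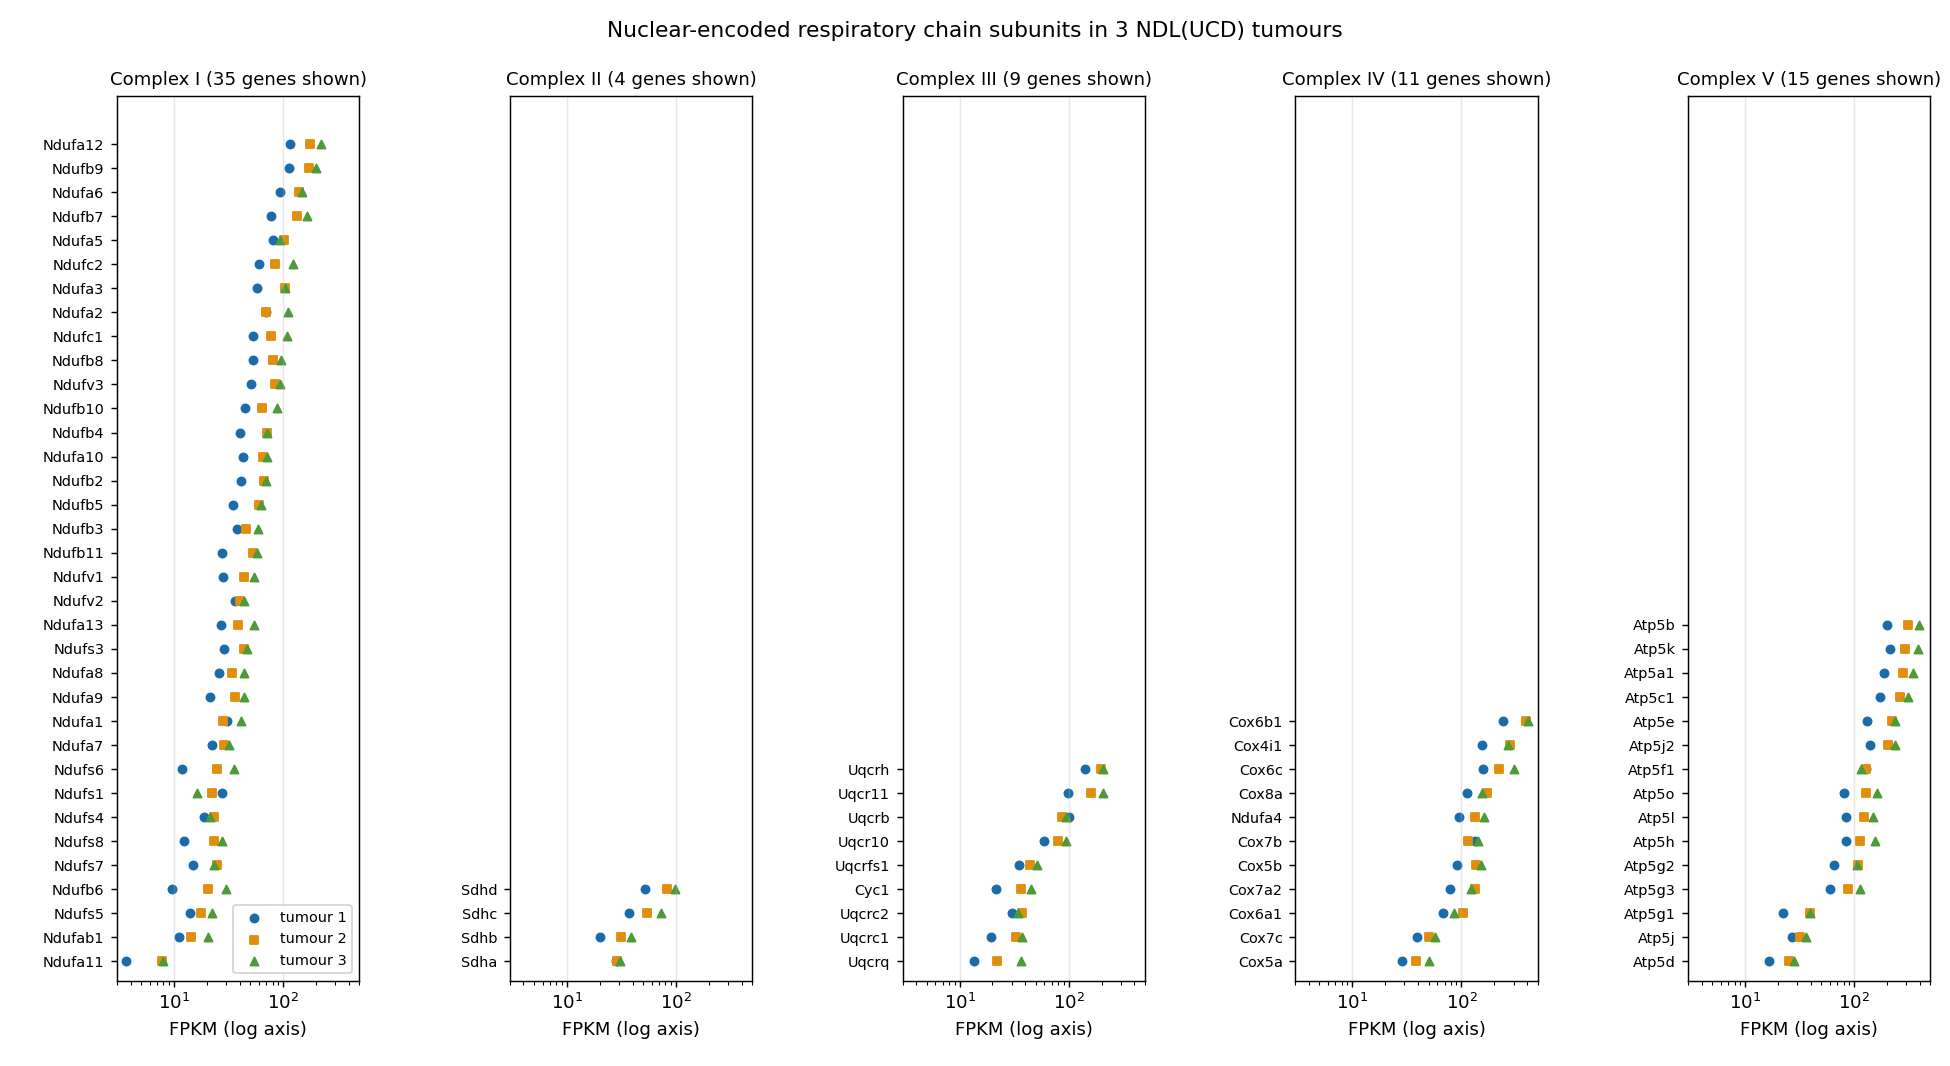
FPKM (log axis) of 74 subunit genes of complexes I to V, restricted isoforms left out, with 1 point per tumour and the genes of each complex ordered by their mean. Complex I spans 26.8-fold between its lowest and highest mean, and tumour 1 is the lowest point for most genes, with Ndufs1 a visible exception.

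Complexes IV and V had higher subunit levels than complexes I, II and III in each tumour. The median FPKM over the 36 subunits of complex I was 35.3, 49.5 and 58.5 in tumours 1, 2 and 3 (47.7 ± 11.7, SD, n = 3). Complex II, with 4 subunits, had medians of 32.8, 42.6 and 56.0 FPKM (43.8 ± 11.6), and complex III, with 9, had 35.4, 44.1 and 50.7 FPKM (43.4 ± 7.68). The medians of complex IV, over 11 subunits, were 95.6, 133.8 and 150.9 FPKM (126.8 ± 28.3), and those of complex V, over 15, were 84.8, 126.9 and 154.0 FPKM (121.9 ± 34.9). Within each complex the tumours differed, so the complexes were compared inside each tumour. On the log2(FPKM + 0.1) scale the complex I median was below that of complex IV by a difference of -1.41 ± 0.04 and below that of complex V by -1.34 ± 0.07, in 3 of 3 tumours. Complex II differed by -1.59 ± 0.10 and -1.51 ± 0.12 from complexes IV and V, and complex III by -1.53 ± 0.09 and -1.46 ± 0.18. These 6 differences exceeded their spread between tumours many times over. With the restricted isoforms counted in complex IV, complexes I, II and III differed from it by -0.45 ± 0.17, -0.62 ± 0.22 and -0.57 ± 0.13. With 3 tumours the exact permutation of signs, two-sided, cannot give a p below 0.25, and each difference gave 0.25 (0.357 after Benjamini-Hochberg adjustment over 10 pairs).

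Complexes I, II and III lay close together, as did IV and V. Complex I minus II was 0.17 ± 0.08 log2 units, complex I minus III was 0.12 ± 0.11, complex II minus III was -0.05 ± 0.11 and complex IV minus V was 0.07 ± 0.10. The last 3 did not keep their sign in all tumours. Complex I minus III turned to -0.34 with means in place of medians, and complex IV minus V to -0.89 when the restricted isoforms were counted in complex IV. Transcripts of complex IV subunits were also the shortest, with a median of 618 bases against 800.5 for complex I, 2065.5 for II, 1363 for III and 838 for V. Over subunits with transcripts of at least 1000 bases, the median FPKM in tumours 1, 2 and 3 was 28.5, 43.4 and 53.6 for complex I (13 genes) and 170.6, 261.2 and 310.2 for complex V (5 genes); only 1 gene of complex IV, Cox7b, was that long. Some of these lengths are uncertain. In tumour 1 Sdhc, at 3171 bases, had 28.7 fragments for each FPKM, and Sdhd, at 1231 bases, had 31.9. The median length of complex II depends on that of Sdhc. Ndufab1 and Atp5g1, at 3479 and 2655.5 bases, had 17.5 and 17.6 fragments for each FPKM. The part of transcript length in the difference between complexes was not otherwise tested.

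**Figure D2:**
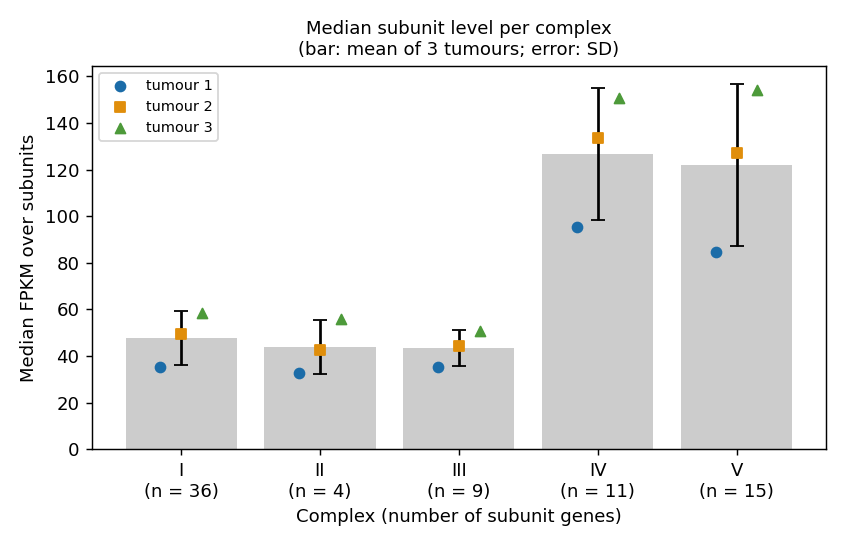
Median FPKM over the subunits of each complex, with 1 point per tumour, bars for the mean of 3 tumours and error bars for the SD. The medians of complexes IV and V lie between 84.8 and 154.0 FPKM in every tumour, above all those of complexes I to III, which lie between 32.8 and 58.5 FPKM.

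Complex I, the NADH dehydrogenase, holds 7 nuclear-encoded core subunits, which carry the flavin and iron-sulphur clusters and are conserved in bacteria, and many accessory subunits. The core subunits were lower than the accessory ones in 3 of 3 tumours, with a difference of medians of -0.61 ± 0.09 log2 units (exact two-sided sign-flip permutation p = 0.25, the smallest possible). Core transcripts ran from 758 bases (Ndufs7) to 2661 (Ndufs1). For each FPKM and kilobase of transcript, genes here under 600 bases had a median of 16.8 fragments in tumour 1. Those of at least 1000 bases had 23.5. The part of transcript length in the core difference was not tested. Ndufs7, which carries an iron-sulphur cluster, was at 14.9, 24.9 and 23.0 FPKM. Ndufv1, which encodes the flavin-binding subunit that takes electrons from NADH, was at 28.3, 43.8 and 54.4 FPKM. Its partner in the same arm, Ndufv2, was at 36.2, 40.5 and 43.5 FPKM. Both were lowest in tumour 1 and highest in tumour 3. Ndufs3 was at 28.5, 43.4 and 46.2 FPKM and Ndufs8 at 12.4, 23.4 and 27.5 FPKM.

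Ndufs1, the largest core subunit by known protein size, was the only core gene that was not lowest in tumour 1. It was at 27.7, 22.4 and 16.3 FPKM, highest in tumour 1 and lowest in tumour 3, and its deposited intervals (26.4 to 28.9, 21.3 to 23.6 and 15.4 to 17.2 FPKM) did not overlap. Ndufv1 was higher in tumour 3 than in tumour 1, so the ratio between the deposited levels of these partners differed between tumours. With the GC and length trends of all genes removed (see the between-tumour comparison), the log2 ratio of tumour 3 to tumour 1 of Ndufs1 went from -0.76 to -0.29, the same direction with a smaller size. The highest value of Ndufv1 was then only 1.05 times its lowest (Cochran's Q adjusted p = 0.27), and that of Ndufs1 1.22 times. Transcripts of Ndufs1 had 45.1% GC.

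Among the 29 accessory subunits the highest were Ndufa12 at 171 ± 52.4 FPKM, Ndufb9 at 161 ± 43.2 FPKM and Ndufa6 at 127 ± 29.6 FPKM (SD, n = 3). Each was lowest in tumour 1: Ndufa12 was at 116, 176 and 221 FPKM. The lowest were Ndufa11, at 3.63, 7.71 and 7.84 FPKM, and Ndufab1, the acyl carrier protein of mitochondria, at 11.04, 14.2 and 20.5 FPKM. Ndufa11 stood apart in having the most fragments for its FPKM and length. It had 72.4 fragments for each FPKM in tumour 1, or 133 per kilobase of its 545-base transcript, where the median gene here had 18.6 and no other subunit exceeded 28.5. Its 263, 537 and 608 fragments were therefore more than those of Ndufab1 (193, 239 and 386), and its rank by FPKM is uncertain. At the other end, Ndufab1 had 5.03 fragments for each FPKM and kilobase of its 3479-base transcript in tumour 1, and Uqcrq 5.73. Whether the lengths used here are those behind the FPKM values was not tested. Ndufs5, at 13.9, 17.5 and 22.2 FPKM, shares 5452 bp with the gene row BC002163, listed at 0.00989 FPKM or less, so its value is uncertain too.

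Complex II, succinate dehydrogenase, belongs to both the citric acid cycle and the respiratory chain. Its catalytic subunits were the lower pair: Sdha, the flavoprotein, was at 28.3, 28.8 and 31.0 FPKM, and Sdhb, the iron-sulphur subunit, at 20.03, 31.4 and 38.5 FPKM. The membrane anchors were higher, Sdhc at 37.3, 53.9 and 73.4 FPKM and Sdhd at 52.2, 82.5 and 97.2 FPKM. Sdha was nearly level between tumours, with the highest value 1.10 times the lowest, whereas Sdhb, Sdhc and Sdhd were 1.86 to 1.97 times as high in tumour 3 as in tumour 1. In tumour 1 Sdha exceeded Sdhb and in tumours 2 and 3 it was below Sdhb, all as deposited. The contrast between the 2 depended on the scaling. With the GC and length trends of all genes removed, the highest value was 1.15 times the lowest for Sdha and 1.03 times for Sdhb. For Sdhc and Sdhd it was then 1.79 and 1.39 times.

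In complex III, the cytochrome bc1 complex, accessory subunits were both the highest and the lowest transcripts. Uqcrh, the hinge protein, was highest at 182.5 ± 36.4 FPKM, followed by Uqcr11 at 156 ± 54.5 FPKM and Uqcrb at 93.7 ± 7.07 FPKM. The lowest were Uqcrq, at 13.7, 21.8 and 36.5 FPKM, and the core gene Uqcrc1, at 19.4, 33.0 and 37.6 FPKM. Of the redox subunits, cytochrome c1 (Cyc1) was at 21.5, 36.9 and 44.7 FPKM and the Rieske protein gene Uqcrfs1 at 35.4, 44.1 and 50.7 FPKM. Cycs, which encodes the cytochrome c that carries electrons on to complex IV, was at 13.1, 15.2 and 15.5 FPKM, below every median of a complex. Its testis counterpart Cyct was listed at 0 in all 3 tumours.

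In complex IV, cytochrome c oxidase, Cox6b1 was the most abundant transcript of all 88, at 242, 389 and 409 FPKM (347 ± 90.8, mm9 chromosome 7, 31401993 to 31411170). Cox4i1, the general form of the largest nuclear-encoded subunit, was at 154, 279.5 and 264 FPKM and Cox6c at 157, 223 and 306 FPKM. The lowest general subunits were Cox5a, at 28.3, 38.1 and 50.6 FPKM, and Cox7c, at 39.0, 50.6 and 57.1 FPKM. Cox5b, the zinc-binding subunit, was higher than Cox5a in each tumour, at 90.1, 136 and 151 FPKM. Ndufa4, first assigned to complex I and now counted in complex IV, was at 95.6, 134 and 162 FPKM, within the range of complex IV. By its mean over tumours it was below only Ndufa12 and Ndufb9 among complex I subunits.

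The general isoform exceeded the tissue-restricted one at every subunit of complex IV that has both, in 3 of 3 tumours and with deposited intervals that did not overlap in any of them. Cox7a1, the heart and skeletal muscle form of Cox7a, was the only restricted isoform above 1 FPKM, at 7.28, 7.99 and 15.3 FPKM from 35, 37 and 79 fragments (limma adjusted p = 5.8e-06, n = 3). Its general counterpart Cox7a2 was at 78.7, 132 and 123 FPKM, higher by 3.48 ± 0.52 log2 units or 11.2-fold. Per tumour the ratio was 10.8, 16.5 and 8.05, so Cox7a1 had its largest share in tumour 3. The hypoxia-linked lung isoform Cox4i2 was at 0.259, 0.202 and 0.968 FPKM from 4, 3 and 16 fragments, below 1 FPKM in the limma fit (adjusted p = 0.021), and Cox4i1 exceeded it by 8.85 ± 0.96 log2 units.

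The muscle isoform Cox6a2 was at 0.0766, 0.237 and 0 FPKM and the testis isoform Cox6b2 at 0.527, 0.730 and 0.0911 FPKM. Cox8b, another muscle isoform, was at 0.635, 0 and 0.395 FPKM, and the testis isoform Cox8c was at 0.124 FPKM in tumour 1 and listed at 0 in the others. The largest number of fragments behind any of these 4 in a tumour was 3.3, for Cox6b2 in tumour 2. Their general counterparts Cox6a1 (68.0, 104 and 84.9 FPKM) and Cox8a (111, 172 and 156 FPKM) rested on 661 or more fragments each. Cox7b, at 133, 114 and 141 FPKM, had a counterpart, Cox7b2, listed at 0. Ndufa4l2, a paralog of Ndufa4 known as a hypoxia target, was at 0.537, 0.698 and 0.271 FPKM, and Ndufa4 exceeded it by 7.80 ± 0.85 log2 units. Over 13 pairs of isoforms or paralogs tested, 12 kept their sign in 3 of 3 tumours, each with exact two-sided sign-flip permutation p = 0.25 (0.271 adjusted over 13).

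The calls below 1 FPKM for Cox4i2, Cox6a2, Cox6b2, Cox8b, Cox8c and Ndufa4l2 rest on few fragments. Only Cox6a2 and Cox8c remained below without tumour 1 or without tumour 2, and these and Cox4i2 without tumour 3. With median-of-ratios scaling 4 remained below, and with GC and length trends removed 4 did. Only Cox8c did with FPKM rescaled over loci of at least 300 bp. That rescaling divided the values of tumours 1, 2 and 3 by 0.201, 0.252 and 0.255, so a cut at 1 is a lower level there.

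**Figure D3:**
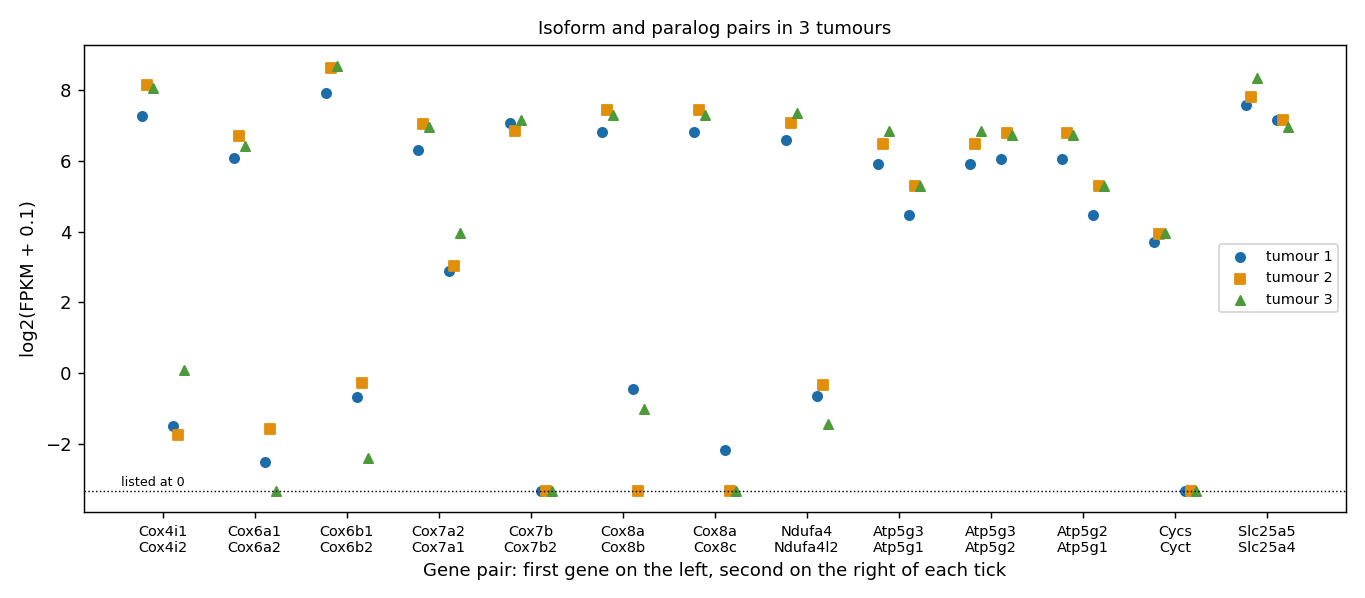
Levels as log2(FPKM + 0.1) of 13 pairs of isoforms or paralogs, with 1 point per gene and tumour; the dotted line is the position of a value of 0. Restricted isoforms other than Cox7a1 lie near or below 0 on this scale, and the 3 c-ring genes Atp5g1, Atp5g2 and Atp5g3 lie within 2 log2 units of each other in each tumour.

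Markers of the cells that use the restricted isoforms were given the same measurement. Of 10 striated muscle genes none was above 1 FPKM and 10 were below, and their summed level was 0.818, 1.03 and 0.761 FPKM in tumours 1, 2 and 3, with Ckm listed at 0 in tumours 1 and 2. Of 5 heart genes only Tnnt2 was above, at 67.6, 149 and 54.0 FPKM, and Myh6 and Myl7 were listed at 0. Of 5 brown fat genes none was above (sum 1.52, 1.16 and 0.6195 FPKM), and Ucp1 was listed at 0 except for 0.0440 FPKM in tumour 3. Of 6 testis germ cell genes none was above, with a sum of 0, 0.103 and 0.465 FPKM. White fat genes, like Cox7a1, were highest in tumour 3, and 2 of 5 were above 1 FPKM. Adipoq was at 3.20, 1.51 and 12.4 FPKM, and the list summed to 60.3, 44.7 and 195 FPKM. The 5 macrophage markers summed to 215, 384 and 826 FPKM, also highest in tumour 3. The part of either cell type in the Cox7a1 level was not tested. With the GC and length trends removed, Cox7a1 was at 10.7, 7.13 and 11.6 FPKM. The white fat list then summed to 40.0, 48.5 and 271 FPKM. Of 9 pericyte and smooth muscle genes 4 were above 1 FPKM, with a sum of 17.5, 21.8 and 18.2 FPKM. All 8 hypoxia targets were above 1 FPKM, where 54.2% of all genes tested were, and the median over the list was 8.50 FPKM. Egln3 was the highest, at 110, 143 and 159 FPKM, and Car9 the lowest, at 1.62, 1.81 and 2.20 FPKM. Cox4i2 and Ndufa4l2 were below 1 FPKM.

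Among the nuclear-encoded catalytic genes described here, those of complex V had the highest transcripts. Subunits encoded by mitochondrial DNA were not part of this set. Atp5b, the catalytic beta subunit of the F1 head, was at 199, 312 and 394 FPKM (302 ± 98.0, mm9 chromosome 10, 127520363 to 127527444), and Atp5a1, the alpha subunit, at 188, 280.5 and 349 FPKM. The small membrane subunit Atp5k was at 214, 291 and 385.5 FPKM. Atp5c1, the gamma subunit of the central shaft, was at 171, 261 and 310.2 FPKM. Unlike in complexes I and III, the catalytic genes were thus among the most abundant. The lowest were the delta subunit Atp5d, at 16.5, 25.5 and 27.9 FPKM, and the stalk subunit Atp5j, at 26.7, 31.7 and 36.5 FPKM. The row of Atp5j shares 3638 bp with LOC654426, which was listed at 175, 176 and 147 FPKM, so how fragments were divided between them is uncertain. In all, 10 of the 88 genes overlap another gene row.

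The rotor ring of ATP synthase is built from copies of subunit c, and the genes Atp5g1, Atp5g2 and Atp5g3 are known to encode the same mature protein behind different targeting peptides. Their coding ends are shown because they let a reader see how the 3 transcripts of 1 protein can be told apart by reads. The last 90 coding bases before the stop codon, read from GRCm38 with GENCODE vM21, all on the minus strand, lie at chr11:96073107-96073196 for Atp5g1, chr15:102663017-102663106 for Atp5g2 and chr2:73908596-73908685 for Atp5g3. Capitals mark the 24 positions at which the 3 genes do not all have the same base.
Atp5g1: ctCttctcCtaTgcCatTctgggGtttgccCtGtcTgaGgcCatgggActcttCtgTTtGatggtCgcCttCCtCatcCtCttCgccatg
Atp5g2: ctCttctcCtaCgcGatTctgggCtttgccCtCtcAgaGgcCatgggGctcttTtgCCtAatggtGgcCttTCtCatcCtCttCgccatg
Atp5g3: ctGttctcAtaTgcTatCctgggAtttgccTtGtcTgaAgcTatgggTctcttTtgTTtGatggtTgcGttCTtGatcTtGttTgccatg

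Over their last 225 coding bases Atp5g1 and Atp5g2 were 84.9% identical, with 34 differences of which 32 fell on the last base of a codon. Atp5g1 and Atp5g3 were 80.0% identical (45 differences, 41 on the last base of a codon), and Atp5g2 and Atp5g3 78.7% (48 differences, 44). The longest stretches shared without a difference were 20, 11 and 8 bases for these pairs, in the same order.

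Most c-ring transcripts came from Atp5g2 and Atp5g3. Atp5g1 was at 22.04, 39.0 and 39.0 FPKM, Atp5g2 at 65.5, 109 and 105 FPKM and Atp5g3 at 60.0, 87.9 and 114 FPKM. Atp5g1 was the lowest of the 3 in each tumour, with intervals apart from both others. Atp5g2 exceeded it by 1.49 ± 0.07 log2 units (2.81-fold) and Atp5g3 by 1.38 ± 0.19 (2.61-fold), in 3 of 3 tumours. Atp5g3 minus Atp5g2 was -0.11 ± 0.21, positive in 1 of 3 tumours, with intervals apart in only 1 (exact two-sided sign-flip permutation p = 0.5), so these neighbours did not differ beyond their spread.

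Of the 5 genes that share a prefix but encode no subunit, Cox7a2l, a factor that joins complexes III and IV in supercomplexes, was as abundant as many subunits, at 69.0, 117 and 129 FPKM. Cox4nb, named for its place beside Cox4i1, was at 3.00, 3.52 and 4.99 FPKM, and Atp5sl, a relative of the coupling factor gene Atp5s, at 3.67, 4.18 and 4.31 FPKM. Atp5s was at 2.28, 2.15 and 1.38 FPKM, and it was the only gene of the 81 to lose its call above 1 FPKM when a tumour (1 or 2) was left out. Ndufa4l2 is given above with Ndufa4.

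Tumour 1 had the lowest deposited level for most of these genes. Of the 81 whose mean reached 1 FPKM, 74 were lowest in tumour 1, where 59.7% of all 11193 genes tested were; 65 were highest in tumour 3, 13 in tumour 2 and 3 in tumour 1. The median log2 ratio of tumour 2 to tumour 1 was 0.58 over the 81 genes and 0.28 over all genes, that of tumour 3 to tumour 1 was 0.80 and 0.38, and that of tumour 3 to tumour 2 was 0.20 and 0.02. A gene was called different between tumours when Cochran's Q on the deposited intervals had a Benjamini-Hochberg adjusted p under 0.05 and its highest value was at least 2 times its lowest. By that rule 15 of 81 were called, against 32.1% of all genes tested, so the members were not called more often than genes at large. All 15 were lowest in tumour 1 and highest in tumour 3; 14.9% of all genes tested were called and lowest in tumour 1, and 15.5% called and highest there. There is 1 library per tumour, so the Q test compares these libraries with the error of the deposited intervals only.

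The called genes comprised 10 of the 36 subunits of complex I, a share below the 32.1% over all genes, among them Ndufa9, Ndufa11, Ndufb6, Ndufb7, Ndufc1, Ndufs6 and Ndufs8, 3 of 9 of complex III (Cyc1, Uqcr11 and Uqcrq), Atp5o of complex V and the restricted isoform Cox7a1. None of the 4 subunits of complex II and none of the 11 general subunits of complex IV was called, although all 15 of these had an adjusted Q p under 0.05. Whether the complexes differ in this share was not tested. Ndufb6, an accessory subunit of the membrane arm, had the largest ratio, at 9.65, 20.5 and 29.7 FPKM, with intervals of 7.66 to 11.6, 17.5 to 23.4 and 26.3 to 33.1 FPKM (ratio 3.08, Cochran's Q adjusted p = 2.0e-25). Ndufs6, a zinc-binding subunit, was at 11.9, 24.9 and 35.6 FPKM (ratio 3.00, Q adjusted p = 4.2e-27) and Uqcrq had a ratio of 2.67 (Q adjusted p = 3.3e-21). In each of the 3 the intervals of the tumours were apart. The other 12 had smaller ratios.

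The calls depended on which tumours were compared, as they did over all genes. Without tumour 1 no gene of the 81 was called, against 5.66% of all genes (0 also at an unadjusted Q p under 0.05 with the same ratio), although 56 had an adjusted Q p under 0.05 at any ratio. Without tumour 2 the count was 15, against 29.1% of all genes, and without tumour 3 it was 3 (Ndufa11, Ndufb6 and Ndufs6), against 13.9%. With median-of-ratios scaling 5 were called, against 27.7% of all genes: Ndufb6, Ndufs6 and Uqcrq again, and Ndufs1 and Atp5s. Under that scaling the median log2 ratio of tumour 3 to tumour 1 was 0.45 over the 81 genes and 0.03 over all genes.

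The ratio between tumours moved with base composition over all genes, and less so among these genes. Across all 11054 genes tested with a value, the log2 ratio of tumour 3 to tumour 1 had a Spearman coefficient of 0.68 with transcript GC content; across the 81 it was 0.36. These coefficients describe genes of the same 2 libraries and carry no test. Of the 52 genes with at least 50% GC all 52 were higher in tumour 3 than in tumour 1, with a median log2 ratio of 0.84. Of 20 with 45 to 50% GC, 18 were higher, median 0.85, and of 9 under 45% GC, 7 were higher, median 0.20. Those that were not higher in tumour 3 were Ndufs1, Atp5f1 (127, 128 and 116 FPKM), Uqcrb (101, 86.5 and 93.9 FPKM) and Atp5s, named here after their values were seen.

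When the GC and length trends of all genes were removed from each tumour, the median log2 ratio of tumour 3 to tumour 1 was 0.16 over the 81 genes and 0.01 over all genes. Then 45 of 81 were lowest in tumour 1, where 38.9% of all genes were, and 7 were called, against 15.4% of all genes. The 7 were mostly other genes: Atp5s, Cox7b, Cycs, Ndufa4, Ndufab1, Ndufb6 and Ndufs4. The relation with GC turned around among the 81 genes, to a Spearman coefficient of -0.70, while it was -0.05 over all genes, so the trend of all genes was steeper than that of these genes. Cycs, with 40.8% GC, went from 13.1, 15.2 and 15.5 FPKM as deposited to 7.83, 16.5 and 23.5 FPKM with the trends removed. Ndufb6, at 48.4% GC, was called under each of the 3 scalings, at 11.2, 18.9 and 27.9 FPKM with the trends removed (mm9 chromosome 4, 40217696 to 40226401). Macrophage markers, with the deposited sums given above, were called in 5 of 5 cases as deposited, against 32.1% of all genes tested. With the trends removed 2 of 5 were called and the sums were 261, 356 and 749 FPKM, still highest in tumour 3. The luminal markers, none called in either case, summed to 953, 1311 and 1237 FPKM as deposited and to 1283, 1205 and 995 FPKM with the trends removed, so the place of tumour 1 turned from lowest to highest. The part of GC content and of host cells in the level of tumour 1 was not otherwise tested.

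**Figure D4:**
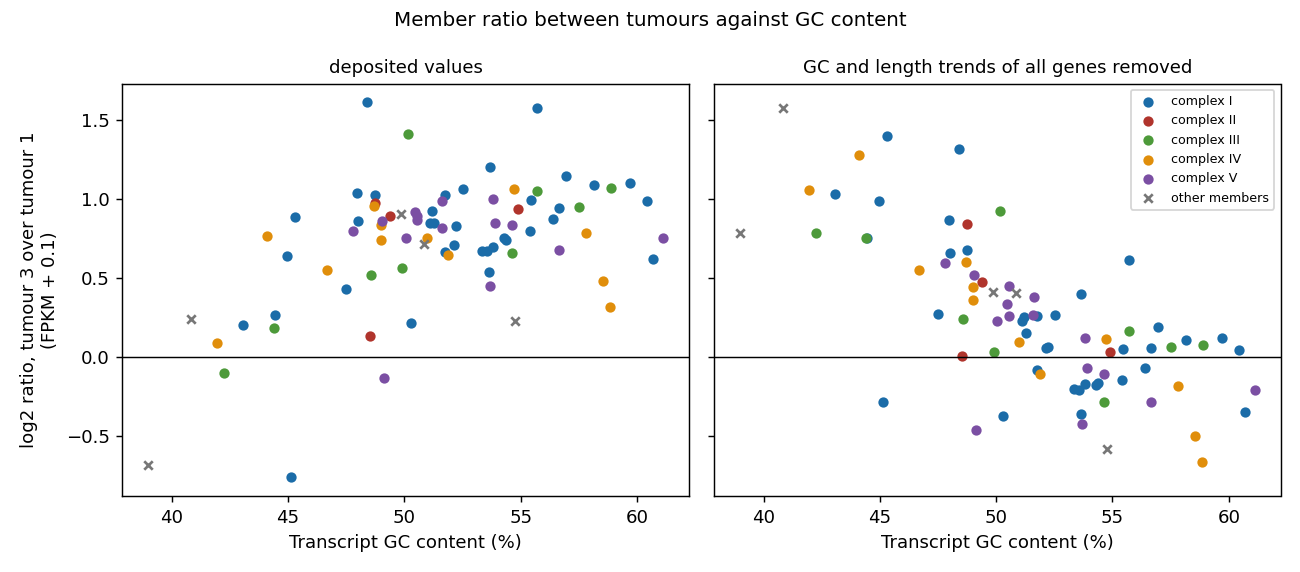
Log2 ratio of tumour 3 to tumour 1, on FPKM + 0.1, of the 81 genes whose mean reached 1 FPKM against transcript GC content in percent, as deposited on the left and with the GC and length trends of all genes removed on the right. On the left nearly all genes lie above 0 (Spearman 0.36), and on the right the low-GC genes lie highest (Spearman -0.70).

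The genes that serve the assembly of the complexes covered a wide range of levels. Of 12 complex I assembly factors found, 10 were above 1 FPKM, and the median over the list was 3.96 FPKM. The highest were Ndufaf2 (12.5, 12.2 and 12.7 FPKM) and Ndufaf1 (8.98, 7.13 and 7.90 FPKM), and the lowest Ndufaf6 (1.24, 0.604 and 1.37 FPKM) and Ndufaf4 (2.26, 0.813 and 0.665 FPKM). Of the 12 factors 3 were called between tumours as deposited (Ndufaf3, Ndufaf4 and Ndufaf6), against 32.1% of all genes. With the GC and length trends removed 2 were called, against 15.4% of all genes. Only 1, Ndufaf6, was called in both cases. Ndufaf4 was at 1.16, 0.947 and 1.12 FPKM with the trends removed. All 4 complex II factors were above 1 FPKM, with Sdhaf1 highest at 9.34, 13.2 and 20.7 FPKM and the only one called as deposited (with the trends removed it was not, and Sdhaf3 and Sdhaf4 were), followed by Sdhaf2 at 9.08, 9.95 and 8.94 FPKM. The lowest were Sdhaf3, listed as Acn9 (4.11, 4.07 and 4.29 FPKM), and Sdhaf4 (5.05, 8.83 and 9.29 FPKM).

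Of 5 complex III factors found, 4 were above 1 FPKM, led by Uqcc1 (4.29, 5.72 and 7.59 FPKM) and Ttc19 (7.20, 4.73 and 4.45 FPKM). Lyrm7 was the lowest at 0.670, 0.696 and 0.561 FPKM. The next lowest and the only one called of 4 tested was Hccs, the enzyme that attaches haem to c-type cytochromes, at 5.64, 3.27 and 2.14 FPKM as deposited. It was at 3.59, 3.49 and 3.16 FPKM with the trends removed, which ended the call. Of 16 complex IV factors 15 were above 1 FPKM. The copper chaperone Cox17 stood out at 101, 119 and 174 FPKM, followed by Cox20, listed as Fam36a, at 77.6, 53.7 and 36.1 FPKM; the lowest were Sco2 (0.751, 1.18 and 2.31 FPKM) and Cox11 (2.60, 2.07 and 2.54 FPKM). Of the 16, Cox20, Sco2 and Cox18 were called as deposited, against 32.1% of all genes tested. With the trends removed 0 of 16 were, against 15.4%. Cox17 and Cox20 thus exceeded Cox7c and Cox5a, subunits of the enzyme they help to build, in tumour 1, while in tumour 3 only Cox17 did.

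Among 5 genes of complex V assembly, inhibition and association, Usmg5, a small peptide of the ATP synthase dimer, was at 194, 250.3 and 354 FPKM and the inhibitor Atpif1 at 190.5, 260.4 and 238 FPKM. The assembly factors proper were low, Atpaf2 at 8.98, 13.8 and 14.7 FPKM and Atpaf1 at 1.41, 1.39 and 1.59 FPKM, the last not separated from 1 FPKM. None of the 5 was called between tumours as deposited, against 32.1% of all genes tested. Usmg5 and 2010107E04Rik were called with the trends removed, against 15.4%.

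Of 14 regulators of mitochondrial biogenesis 11 were above 1 FPKM and 2 below, the coactivator gene Ppargc1b (0.0295, 0.123 and 0.229 FPKM) and the nuclear receptor gene Esrrg (0.752, 0.147 and 0.163 FPKM). Yy1 was highest at 20.7, 17.3 and 14.3 FPKM, followed by Nrf1, the nuclear respiratory factor, at 5.95, 10.4 and 12.0 FPKM. Of 12 tested between tumours 5 were called as deposited, against 32.1% of all genes tested. These were Nrf1, lowest in tumour 1, and Ppargc1a, Gabpa, Tfb2m and Mterf, highest there. Over all genes tested, 15.5% were called and highest in tumour 1. With the trends removed 2 of 11 were called, against 15.4% of all genes: Ppargc1a (5.46, 3.13 and 2.36 FPKM) and Tfb2m (4.62, 4.86 and 2.35 FPKM, highest in tumour 2). Ppargc1a, which encodes the coactivator PGC-1alpha, was at 6.67, 3.17 and 1.87 FPKM, and Gabpa, an ETS factor of respiratory gene promoters, at 13.8, 5.38 and 3.41 FPKM. With the trends removed Gabpa was at 8.18, 5.91 and 5.27 FPKM and Nrf1 at 7.13, 9.58 and 10.8 FPKM. Gabpa overlaps Atp5j by 451 bp. Ppargc1a, Gabpa, Tfb2m and Mterf were named after their values were seen.

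Of 15 genes of other electron entry points and inner-membrane carriers 11 were above 1 FPKM. The adenine nucleotide carriers, which exchange ATP for ADP, were the highest, Slc25a5 at 191, 223 and 323 FPKM and Slc25a4 at 142, 142 and 123 FPKM. Slc25a5, the general form, exceeded Slc25a4, the heart and muscle form, by 0.82 ± 0.51 log2 units in 3 of 3 tumours (exact two-sided sign-flip permutation p = 0.25). The lowest were Cyct and Ucp1. Etfb and Sqrdl were called as deposited, of 11 tested, against 32.1% of all genes tested. None was with the trends removed, against 15.4%.

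Promoter sequences were examined because several of the genes share known regulators. Of the 88 genes 71 matched a RefSeq promoter entry on GRCm38.p6, which holds 300 bases, 250 before and 50 after a transcript start. The NRF1 motif, spelled by the capitals of the stretches printed here, was in 5 of 71 (7.04%; Atp5g2, Atp5k, Cox6a1, Ndufa11 and Uqcrc1), and in 1.07% of all 27025 genes with an entry. The YY1 motif AAGATGGCG was in 8 of 71 (11.3%) and in 1.64% of all genes. The ETS motif ACCGGAAGT, bound by GABP, was in 1 of 71 (1.41%) against 1.21%, and the TATA box TATAAA in 7 of 71 (9.86%) against 15.7%. Both strands were searched for exact matches. A match is a description of letters and not a binding site. The 4 stretches hold the NRF1 motif, in capitals, upstream of the annotated start with 20 bases on each side. They lie at chr15:102671060-102671109 (minus strand) for Atp5g2, chr5:108434420-108434469 (minus) for Atp5k, chr5:115349091-115349140 (minus) for Cox6a1 and chr17:56717682-56717731 (plus) for Ndufa11.
Atp5g2: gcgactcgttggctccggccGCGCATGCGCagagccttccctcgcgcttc
Atp5k: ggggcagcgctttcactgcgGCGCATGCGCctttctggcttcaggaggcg
Cox6a1: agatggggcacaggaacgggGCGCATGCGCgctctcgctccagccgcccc
Ndufa11: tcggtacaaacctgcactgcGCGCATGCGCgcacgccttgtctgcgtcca

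The 4 genes with these stretches did not share a level or a pattern between tumours. Atp5k reached 385.5 FPKM in tumour 3, Atp5g2 105 FPKM, Cox6a1 84.9 FPKM and Ndufa11 7.84 FPKM. Ndufa11 was called between tumours and the other 3 were not, and Cox6a1 and Atp5g2 were highest in tumour 2 while Atp5k and Ndufa11 were highest in tumour 3.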

How the data were processed

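Total RNA libraries of 3 tumours were made after ribosomal RNA depletion, from 50 ng of depleted RNA with directional random-hexamer priming, per the labels' protocols. For each gene the authors deposited an FPKM value, its interval and a status flag, per the file headers. TopHat, Cufflinks and the build mm9 appear in the submitters' processing notes without roles; tool versions, strand setting and annotation release: not given in the sources used here. Tumours were numbered in accession order. Nothing but the series' statement of separate mice describes the replicates. The limma and sign-flip p-values measure the spread between these tumours. Those of the Q test set the differences between libraries against the error of the deposited intervals only.

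Rows of repeated symbols were added up. An interval was taken to reach 2 standard errors to each side, and FPKM divided by that error, squared, gave the implied fragments, which summed to 11.7, 12.4 and 13.4 M (1e6). All fragment numbers given above are these implied ones. Some were not whole numbers, such as 0.5 for Cox6a2 in tumour 1, so intervals may hold more than counting error. They hold no spread between tumours, and no count model was used. The level test ran over all genes on log2((FPKM + 0.1)/(1 + 0.1)) against 0 with limma 3.58.1 (R 4.3.3; trend, robust). Differences between tumours used Cochran's Q (2 degrees of freedom) where the mean reached 1 FPKM, and required a highest value at least 2 times the lowest, Benjamini-Hochberg adjusted at 0.05. Complexes and isoform pairs were compared within tumours by exact sign-flip permutation. GC content and length (GENCODE vM21) matched by symbol for 98.2% of symbols and all 88 members, and trends were removed by lowess (span 0.3). Scripts were tested on simulated data. Alternatives were other scalings, filters, pseudocounts and omission of each tumour.

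Named were core subunits of complex I, the 3 highest and 2 lowest subunits of each complex, isoform pairs, most called members and non-subunits. The 2 highest and 2 lowest genes of each pathway list were named too. Timmdc1, Uqcc2, Coa1, Coa5 and Coa6 were not found under the symbols used. Results for 1 item are not reported here. Genes outside this rule are given where a group is described. The members and lists were chosen with earlier results of these data known.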

Additional observations from a re-analysis of the deposited data

How the results depend on the processing

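Over 202 pairs of a result and an alternative, 183 kept the result's direction and side of the threshold, 10 were weaker, 1 stronger, 6 moved and 2 reversed. The 6 members below 1 FPKM became 4 with median-of-ratios scaling, 4 with trends removed and 2 to 3 without 1 tumour. They became 1 with a mean of at least 0.5 FPKM (which leaves fewer genes). With scaling over loci of at least 300 bp they also became 1, but that scale raises all values and the cut stayed at 1. The 15 members called between tumours became 5 with median-of-ratios scaling, 5 with scaling over loci of at least 300 bp, 7 with trends removed, 65 at a ratio of 1.5 (against 67.8% of all genes) and 0 to 15 without 1 tumour (5.66% to 29.1% of all genes). The difference of complexes I and III became -0.34 with means, and that of IV and V -0.89 with restricted isoforms included, which also took complexes I, II and III minus IV to -0.45, -0.62 and -0.57. The median shift from tumour 1 to 2, 0.58, became 0.29, 0.26 and 0.092 with median-of-ratios scaling, loci of at least 300 bp and trends removed; from tumour 1 to 3, 0.80 became 0.45, 0.46 and 0.16. The cause was not tested. No paired analysis was possible because there is 1 group and no second group shares its numbers. With 3 tumours, and few fragments behind several restricted isoforms, small differences in their levels were not detectable.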
